A study of Mus musculus with 4 samples.

Results

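Semaphorins, plexins and neuropilins are the ligands, receptors and co-receptors of a guidance pathway, and all 31 of their genes among the 56884 genes of the deposited tables are described here. Members were taken by gene symbol, which gave 20 semaphorins of classes 3 to 7, 9 plexins and 2 neuropilins. Earlier results of these data were known when the family was chosen, but no member took part in sorting nuclei into classes. Single-nucleus RNA-seq was performed on medial neocortex of mouse embryos on a C57BL/6J background at E16.5. The 2 Dnmt1 KO libraries came from Sst-Cre/tdTomato/Dnmt1 loxP2 embryos, and the 2 control libraries from Sst-Cre/tdTomato embryos, so that Cre driven by the somatostatin gene Sst and the tdTomato reporter were shared by both genotypes. Deletion of Dnmt1, the gene of DNA methyltransferase 1, is thereby directed to postmitotic interneurons of the Sst lineage and not to progenitors or excitatory neurons. Each library was 1 embryo. Control replicate 2 alone formed batch 2, whereas the other 3 libraries formed batch 1.

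Semaphorins are extracellular cues that act on growing axons and migrating neurons through plexins, whose cytoplasmic part carries a GTPase-activating domain. Class 3 semaphorins are secreted and mostly need a neuropilin, which binds the ligand while an A-type plexin transmits the signal, whereas Sema3e binds Plxnd1 directly. Classes 4, 5 and 6 are transmembrane proteins, and Sema7a is held in the membrane by a lipid anchor. In the developing forebrain the family is known for steering callosal and corticofugal axons, for sorting interneurons around the striatum, and for patterning blood vessels.

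The retained nuclei numbered 5640 and 12064 (Dnmt1 KO) and 7047 and 4905 (control), with medians of 12274 to 12401 transcripts per nucleus in batch 1 and 21140.0 in control replicate 2. Levels are given as CPM, the count of a gene scaled to 1000000 transcripts of a class in a library. Classes were gated by marker genes and are named after them, and 19268 of 29656 nuclei passed the gate. By library, 60.4% and 62.3% (Dnmt1 KO) against 66.5% and 74.6% (control) passed, so the share differed between genotypes and was highest in control replicate 2. Dnmt1 itself was detected in Sst+/Gad2+ nuclei, those with at least 1 transcript of Sst and of the GABAergic gene Gad2, at 76.1 and 46.1 CPM (Dnmt1 KO) against 81.2 and 66.5 CPM (control). In the MGE-interneuron-like class it was at 56.4 and 49.5 CPM (Dnmt1 KO) against 64.7 and 52.5 CPM (control). The genotypes overlapped in both. Whether these counts fall inside the deleted part of Dnmt1 was not tested, so that they do not check the labels. Xist was at 1281 and 4.13 CPM (Dnmt1 KO) against 1157 and 0.0887 CPM (control), so each genotype held 1 library with high and 1 with low Xist. Replicate 1 was the high one in both, so replicate number and Xist level cannot be told apart. Transcripts of excitatory genes were found in the other classes too. The transcription factors Neurod2 and Neurod6, which mark excitatory neurons, together had 36.0 CPM in radial-glia-like and 49.8 CPM in MGE-interneuron-like nuclei, which is 20.9% and 28.9% of their level over all retained nuclei. Members at or below those shares of their own level over all retained nuclei were read as background in these classes.

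**Figure D1:**
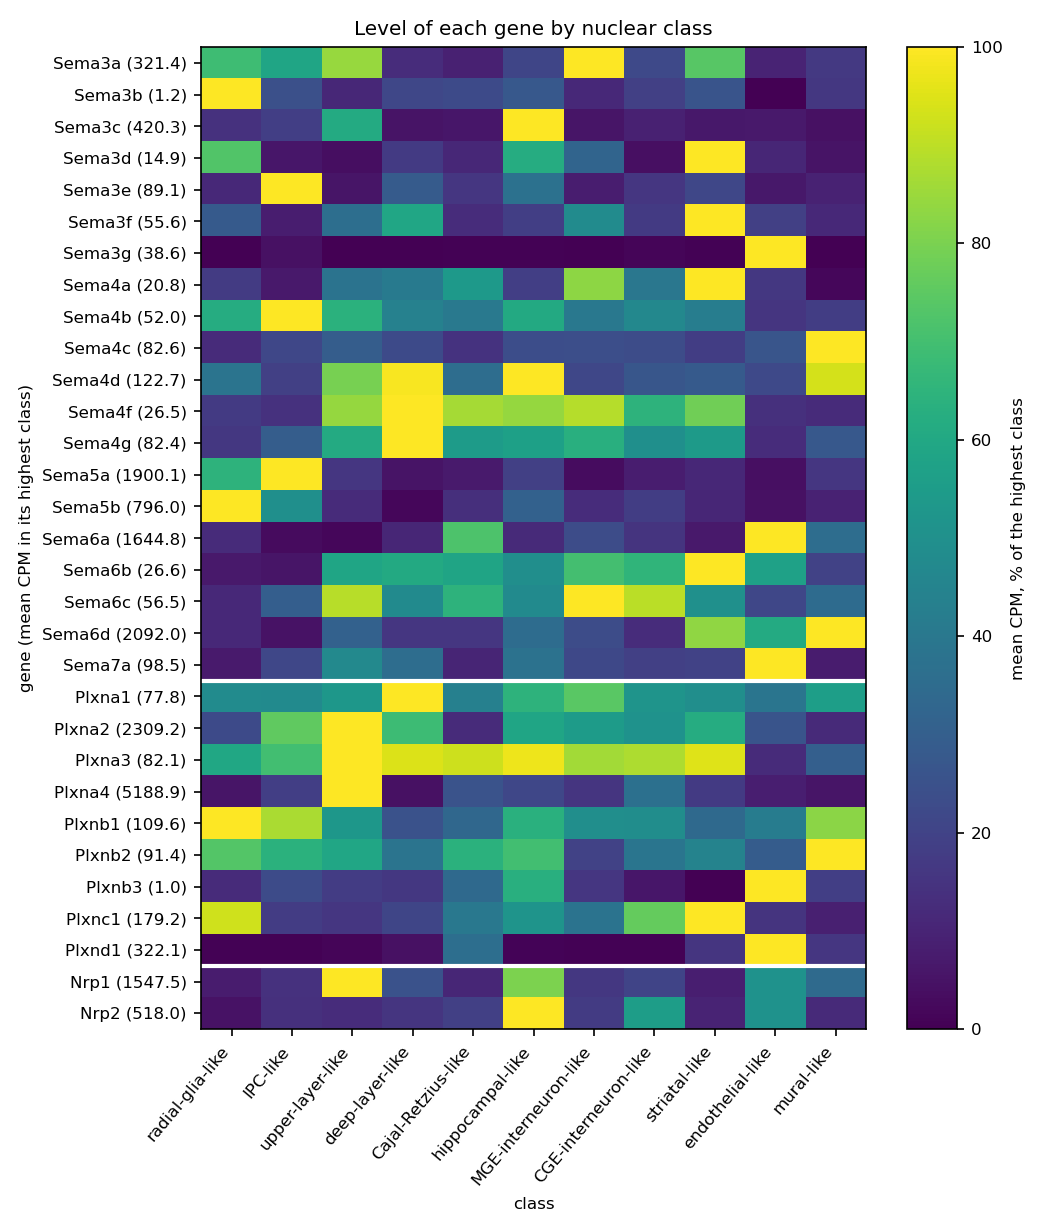
Mean CPM of each gene (rows) in 11 marker-gated classes (columns), as a percentage of the gene's highest class, with that highest mean in parentheses. Means are over the libraries with at least 20 nuclei of a class, which are 2 for striatal-like and 4 for the others. Sema3g and Plxnd1 peak in endothelial-like nuclei, Plxna4 in upper-layer-like nuclei and Sema5a in IPC-like nuclei, whereas Plxna3 is spread over the neuronal classes.

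Across the 11 classes that had at least 20 nuclei in 2 or more libraries, the family had no common pattern. The highest mean lay in endothelial-like nuclei for 5 genes, in striatal-like nuclei for 5, in upper-layer-like nuclei for 4, and in 6 further classes for 2 or 3 genes each, as the map of the levels by class shows. For 14 of the 31 genes, the lowest library of the highest class was above the highest library of the second class. For the other 17, the ranges of the first and second class overlapped over all 4 libraries, with libraries of fewer than 20 striatal-like nuclei counted in. CPM values are not corrected for gene length and are compared here within a gene only. The gene bodies span 10.24 kb (Sema4c) to 578 kb (Sema6d) and lie on 17 chromosomes. Another annotated gene overlaps 23 of them, and for Sema4d (Secisbp2) and Sema4g (Mrpl43) that gene is protein-coding, so their counts may hold reads of the neighbour.

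Class 3 semaphorins that are neighbours in the genome are described first. Sema3d, Sema3a, Sema3e and Sema3c lie in this order on the + strand of chromosome 5 within 5.50 Mb (GRCm39, GENCODE vM39), a span with 21 protein-coding genes in all. All 4 encode secreted ligands. Their promoters, taken as 250 bases before to 50 bases after the start of the canonical transcript, are shown because CpG dinucleotides (capitals) are the substrate of the methyltransferase deleted in the Dnmt1 KO.
Sema3d promoter, chr5:12432874-12433173 (+ strand): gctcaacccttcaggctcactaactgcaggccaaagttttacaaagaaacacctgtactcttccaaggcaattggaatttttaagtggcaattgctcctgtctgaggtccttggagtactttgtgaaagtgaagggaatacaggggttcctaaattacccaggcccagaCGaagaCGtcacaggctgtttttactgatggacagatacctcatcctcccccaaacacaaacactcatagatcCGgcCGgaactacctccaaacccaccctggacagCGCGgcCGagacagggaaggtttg
Sema3a promoter, chr5:13448546-13448845 (+ strand): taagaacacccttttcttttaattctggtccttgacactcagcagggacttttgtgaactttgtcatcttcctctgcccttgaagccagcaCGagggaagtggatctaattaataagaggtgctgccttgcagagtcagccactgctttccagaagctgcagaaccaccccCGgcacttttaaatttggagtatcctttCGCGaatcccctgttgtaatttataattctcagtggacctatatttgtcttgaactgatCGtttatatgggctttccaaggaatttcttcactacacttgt
Sema3e promoter, chr5:14075040-14075339 (+ strand): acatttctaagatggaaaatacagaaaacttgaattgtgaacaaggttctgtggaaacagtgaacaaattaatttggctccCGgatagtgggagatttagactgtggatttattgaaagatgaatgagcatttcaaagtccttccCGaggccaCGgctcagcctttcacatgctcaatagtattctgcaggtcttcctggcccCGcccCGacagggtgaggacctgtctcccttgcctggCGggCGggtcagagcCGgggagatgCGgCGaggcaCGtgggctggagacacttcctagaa
Sema3c promoter, chr5:17778969-17779268 (+ strand): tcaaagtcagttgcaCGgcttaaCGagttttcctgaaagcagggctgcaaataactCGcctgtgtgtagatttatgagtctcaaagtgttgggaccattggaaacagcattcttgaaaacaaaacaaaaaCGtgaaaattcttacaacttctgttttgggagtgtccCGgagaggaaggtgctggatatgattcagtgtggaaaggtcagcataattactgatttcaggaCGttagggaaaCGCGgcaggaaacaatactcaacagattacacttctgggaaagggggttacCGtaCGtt
The dinucleotide CG, which reads the same on both strands, occurs 7, 5, 11 and 10 times in them. It is found at least once in 94.95% of the 21770 promoters of protein-coding genes cut in the same way, whose median is 11. Over the 31 family promoters the number ran from 1 (Plxnb3) to 39 (Nrp2 and Plxna1), with a median of 14, and 20 were above the median of all promoters.

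Among cortical classes, these neighbours differed in where they were high. Sema3a reached 465 and 252 CPM (Dnmt1 KO) against 253 and 315 CPM (control) in MGE-interneuron-like nuclei, and 30.2, 47.7, 46.7 and 39.4 CPM (in the same order of libraries, as in all lists of 4 values) in deep-layer-like nuclei. The deep-layer-like values were all far below the lowest MGE-interneuron-like one, whereas the upper-layer-like values (221 to 312 CPM) overlapped with it. Sema3e was highest in IPC-like nuclei (IPC, intermediate progenitor cells) with 111, 67.5, 128 and 49.9 CPM, against 3.40, 5.42, 7.92 and 3.51 CPM in upper-layer-like nuclei, so that the groups of libraries were far apart in spite of a wide spread among the progenitors. Sema3c had 368, 402, 407 and 505 CPM in hippocampal-like and 236, 288, 272 and 230.5 CPM in upper-layer-like nuclei, and 15.3 to 26.6 CPM in deep-layer-like ones. Sema3d was sparse, with 17.2, 9.51, 9.33 and 7.33 CPM in radial-glia-like nuclei and 0.374 to 0.790 CPM in upper-layer-like nuclei. In the 251 meningeal-like nuclei of Dnmt1 KO replicate 2, the only library with 20 or more, Sema3d and Sema3a were both higher than in any of these classes, at 268 and 841 CPM. The plot of the chromosome 5 group by library shows these levels in 6 classes.

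**Figure D2:**
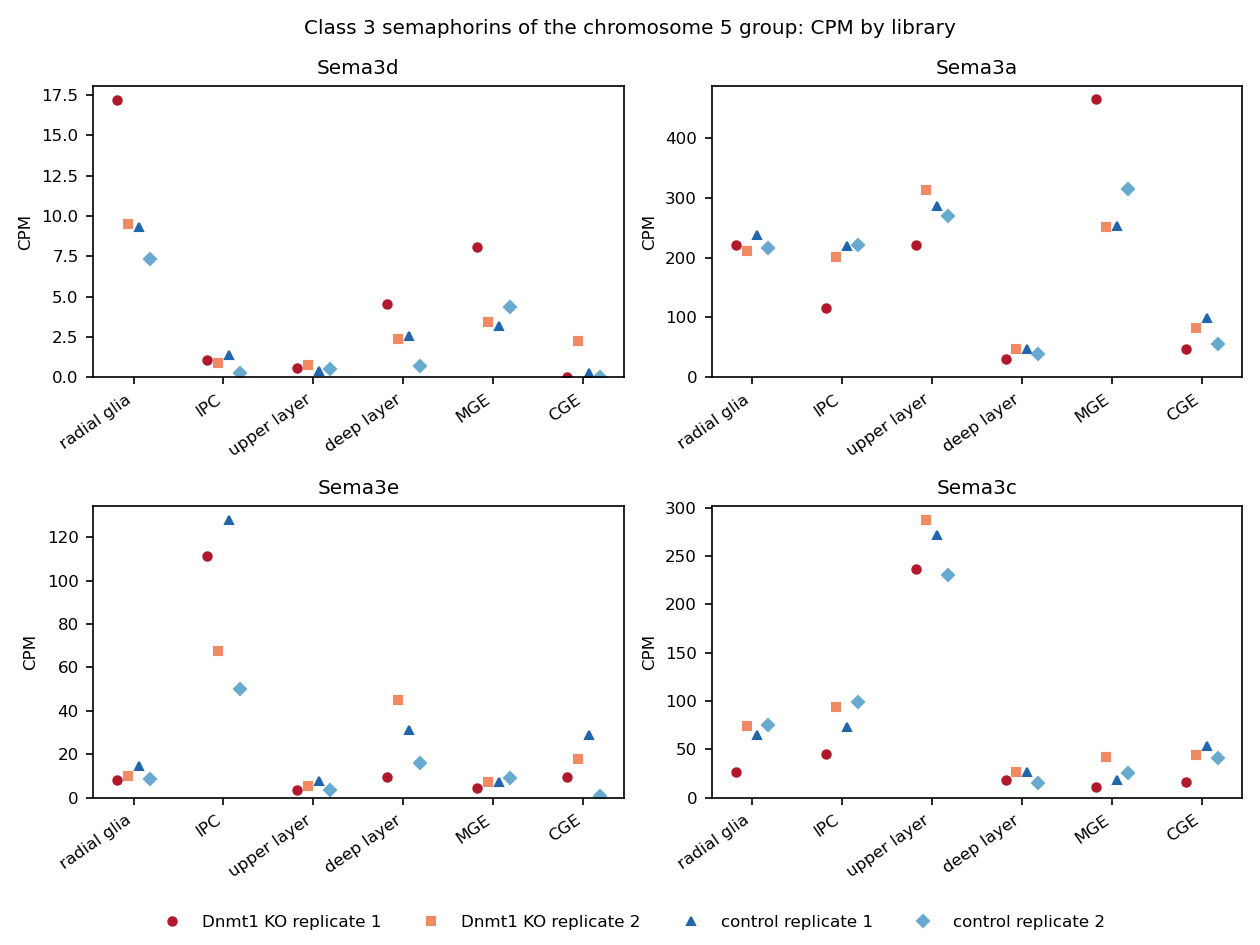
CPM (linear axes from 0) of Sema3d, Sema3a, Sema3e and Sema3c in 6 classes, 1 point per library, with red shades for Dnmt1 KO and blue shades for control. The classes are radial glia, IPC, upper layer, deep layer, MGE and CGE. Among them, Sema3e stands above its other classes in all 4 IPC libraries, and Sema3c in all 4 upper-layer libraries. Hippocampal-like nuclei, where Sema3c was higher, are not plotted.

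Radial glia are the stem cells of the cortex, and IPCs are the committed progenitors they give rise to. Between radial-glia-like and IPC-like nuclei, 21 of 29 members that passed the low-count filter differed at an adjusted p under 0.05 (edgeR quasi-likelihood test with library as a block, Benjamini-Hochberg over all genes). Of these, 8 were higher in radial-glia-like nuclei, where 24.9% of all genes tested were, and 13 were lower, against 20.9% of all genes. The median log2 fold change was -0.04 over the members and 0.03 over all genes. Among ligands, Sema5b fell from 746, 756, 826 and 856 CPM in radial-glia-like to 362, 375, 442 and 401 CPM in IPC-like nuclei (log2 fold change 0.97 ± 0.06, adjusted p = 1.0e-06, higher in 4 of 4 libraries). Sema5a went the other way, from 968, 1298, 1465 and 1167 CPM to 1425, 2175, 2470.4 and 1529 CPM (log2 -0.66 ± 0.07). Class 5 semaphorins carry thrombospondin repeats, and their genes thus differed in opposite directions between the progenitor classes. Plxnc1, the plexin that binds Sema7a, was at 95.9, 209, 178 and 181 CPM in radial-glia-like and 26.2, 40.6, 37.3 and 24.5 CPM in IPC-like nuclei, a difference in every library.

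The genes with higher levels in radial-glia-like nuclei, beside Sema5b, were Sema3d (3.61 ± 0.32), Plxnc1 (2.32 ± 0.14), Sema6a (1.87 ± 0.10), Sema3f (1.70 ± 0.22), Sema4a (1.24 ± 0.36), Sema6d (1.17 ± 0.19) and Sema4d (0.96 ± 0.12), as log2 fold changes with SE (adjusted p 5.4e-07 to 0.0190). The set holds secreted (Sema3d, Sema3f) and transmembrane ligands and 1 receptor. Levels were lower for Sema3e (-3.10 ± 0.18), Plxna4 (-1.88 ± 0.23), Plxna2 (-1.80 ± 0.12), Nrp2 (-1.58 ± 0.19), Sema7a (-1.55 ± 0.18), Sema6c (-1.44 ± 0.21), Nrp1 (-0.97 ± 0.14), Sema4g (-0.93 ± 0.14), Sema4c (-0.84 ± 0.18), Sema4b (-0.75 ± 0.10) and Sema3c (-0.44 ± 0.10) (adjusted p 6.4e-07 to 0.00604). Both neuropilins and the receptors Plxna2 and Plxna4 are in this second set. Nrp1, Nrp2, Plxna4 and Sema6c were at or below the background share in radial-glia-like nuclei, so that their radial-glia-like values were read as background. In IPC-like nuclei Neurod2 and Neurod6 were at 75.4% of their level over all retained nuclei, and Nrp1, Nrp2, Plxna4 and Sema6c did not exceed that share either. Whether IPC-like nuclei express Neurod2 and Neurod6 themselves was not tested. Sema3g also passed the test, but on 1, 1, 0 and 1 counts in radial-glia-like and 5, 4, 1 and 12 counts in IPC-like nuclei, which are too few for a fold change. The IPC-like values of Sema3d and Sema4a were also small, at 3, 2, 3 and 1 counts and 2, 3, 4 and 6 counts, so the size of their fold changes is uncertain beyond the SE. Sema4a lost its call without Dnmt1 KO replicate 2 or control replicate 1 (adjusted p = 0.0739 and 0.104), and Sema3c with the stricter gate (log2 -0.08).

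From IPC-like to upper-layer-like nuclei, the excitatory neurons of callosal layers, most of the family was higher in the neurons. Of 27 members tested, 24 passed, 6 of them higher in IPC-like nuclei (all genes, 25%) and 18 lower (all genes, 26.8%). The median over the members was -0.93, and that over all genes tested 0.00. Plxna4, a receptor of class 6 ligands and a signalling partner of neuropilins, had 988, 944, 966 and 953 CPM in IPC-like and 4258, 5414, 5915 and 5169 CPM in upper-layer-like nuclei. Nrp1, the co-receptor of Sema3a, had 143, 272, 155 and 324 CPM and then 1959, 1408, 1456 and 1367 CPM. Both receptor genes were higher in the neurons of all 4 libraries, with no overlap. In contrast, Sema3e and Sema5a dropped to 3.40, 5.42, 7.92 and 3.51 CPM and 308, 279, 356 and 246 CPM in upper-layer-like nuclei. The plot of 6 genes by class and library shows these levels.

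**Figure D3:**
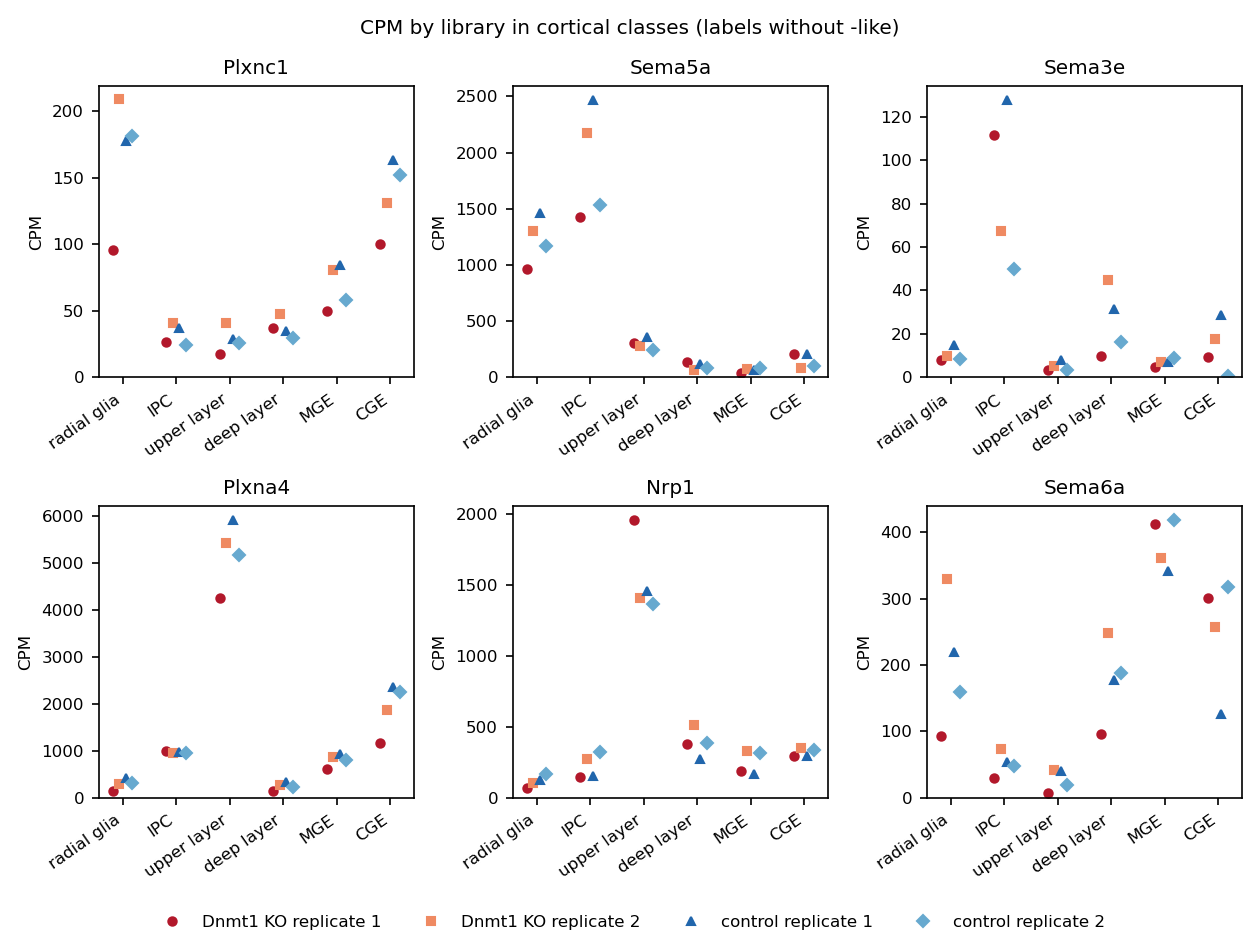
CPM (linear axes from 0) of 6 genes in radial-glia-like, IPC-like, upper-layer-like, deep-layer-like, MGE- and CGE-interneuron-like nuclei, with 1 point per library. Plxna4 and Nrp1 are highest in upper-layer nuclei, Sema5a and Sema3e in IPC nuclei, and Sema6a is lowest in upper-layer nuclei of every library.

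The log2 fold changes of IPC-like over upper-layer-like nuclei above 0 were Sema3e (3.62 ± 0.17), Sema5a (2.27 ± 0.11), Sema5b (1.62 ± 0.09), Sema6a (0.64 ± 0.19), Plxnb1 (0.33 ± 0.08) and Sema4b (0.26 ± 0.08) (adjusted p 6.1e-07 to 0.0212). All are ligands except Plxnb1, a receptor of Sema4d. Those below 0 were Sema6b (-3.69 ± 0.24), Nrp1 (-3.23 ± 0.25), Sema6d (-3.03 ± 0.31), Sema4f (-2.94 ± 0.15), Sema4a (-2.90 ± 0.25), Plxna4 (-2.80 ± 0.11), Sema3f (-2.48 ± 0.22), Sema4d (-2.44 ± 0.08), Sema3c (-2.13 ± 0.16), Sema6c (-1.93 ± 0.15), Sema7a (-1.52 ± 0.12), Sema4g (-1.41 ± 0.10), Plxnd1 (-1.36 ± 0.37), Sema3a (-0.93 ± 0.10), Plxna3 (-0.89 ± 0.10), Sema4c (-0.87 ± 0.14), Plxna2 (-0.77 ± 0.08) and Plxna1 (-0.53 ± 0.10) (adjusted p 1.7e-07 to 0.0143). They comprise Nrp1, 5 plexins and 12 semaphorins. Plxna1 was lower in 3 of 4 libraries as CPM. The IPC-like counts behind Sema6b (2, 2, 3 and 11), Plxnd1 (2, 3, 6 and 8) and Sema4a were small, and the size of these fold changes is uncertain. Without control replicate 2 the Sema6a call was lost (adjusted p = 0.101), without Dnmt1 KO replicate 2 those of Plxnd1 and Sema4b (0.0840 and 0.0729), and without control replicate 1 that of Sema4b (0.0772). Fold changes here are on edgeR's TMM scale, which centres them on the bulk of the genes tested, and differ from ratios of the CPM values. Scaled by library size alone, as CPM are, the fold changes of IPC-like over upper-layer-like nuclei were 0.38 higher in the median (log2), with medians of -0.55 for the members and 0.39 for all genes. Of all genes 49.8% were then higher and 14.7% lower, and of the members 6 were higher and 16 lower. No member with a call changed direction, whereas Plxna1 (log2 -0.15, adjusted p = 0.212) and Plxnd1 (-0.97, 0.0518) lost theirs.

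Deep-layer neurons send axons out of the cortex, whereas upper-layer neurons mainly project within it. Between deep-layer-like and upper-layer-like nuclei, 22 of 28 members passed, 9 of them higher in deep-layer-like nuclei (all genes, 24.1%) and 13 lower (all genes, 24.1%), with a median of -0.05 against -0.02 over all genes. Plxna4 was at 134, 272, 336 and 229 CPM in deep-layer-like nuclei, against the 4258 to 5915 CPM of upper-layer-like ones. Its deep-layer range was the lowest of the 11 classes by mean. Sema6a, a transmembrane ligand of Plxna2 and Plxna4, showed the opposite, with 96.0, 248, 177 and 187 CPM in deep-layer-like and 7.60, 41.1, 39.7 and 19.0 CPM in upper-layer-like nuclei. Plxnd1, the receptor of Sema3e, was low in both, at 19.9, 17.6, 11.95 and 8.59 CPM and 1.20, 6.49, 5.68 and 2.12 CPM, yet higher in the deep-layer-like nuclei of each library.

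Higher in deep-layer-like nuclei were Sema6a (3.01 ± 0.23), Sema3e (2.52 ± 0.21), Sema3d (1.93 ± 0.39), Plxnd1 (1.91 ± 0.30), Plxna1 (1.10 ± 0.07), Sema4g (0.89 ± 0.06), Sema3f (0.86 ± 0.13), Plxnc1 (0.57 ± 0.14) and Sema4a (0.29 ± 0.08) (log2 fold changes, adjusted p 5.4e-05 to 0.0215). Lower were Plxna4 (-4.30 ± 0.15), Sema3c (-3.40 ± 0.10), Sema5b (-2.71 ± 0.09), Sema3a (-2.55 ± 0.06), Nrp1 (-1.83 ± 0.17), Sema5a (-1.43 ± 0.14), Plxnb1 (-0.88 ± 0.05), Sema6c (-0.73 ± 0.06), Plxnb2 (-0.40 ± 0.09), Sema4b (-0.35 ± 0.06), Plxna2 (-0.34 ± 0.09), Sema4c (-0.21 ± 0.06) and Sema7a (-0.19 ± 0.07) (adjusted p 1.8e-06 to 0.0489). Sema4f, Sema4d, Nrp2, Plxna3, Sema6b and Sema6d did not pass. Sema6d was nevertheless below its upper-layer value in 4 of 4 libraries (254, 359, 297 and 412 CPM against 1016, 512, 622 and 435 CPM, adjusted p = 0.0780). The small differences of Sema7a and Sema4c lost their calls on leaving out several of the libraries, Sema7a with any of the 4 (adjusted p 0.0690 to 0.157) and Sema4c with any but Dnmt1 KO replicate 1 (0.126 to 0.152). Plxna2 did so without Dnmt1 KO replicate 2 or control replicate 1 (0.105 and 0.113), Sema4a without either control (0.0633 and 0.104), and Plxnb2 without control replicate 1 (0.0530). Scaled by library size alone, the fold changes moved by -0.18 in the median (log2), 18.6% of all genes were higher and 40.4% lower, and of the members 8 were higher and 14 lower. Sema4a then lost its call (log2 0.11, adjusted p = 0.270) and Sema6d passed (-0.91, 0.0333).

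Cortical interneurons enter the cortex from the medial (MGE) and caudal (CGE) ganglionic eminences, and the Sst lineage comes from the former. Of the 219 Sst+/Gad2+ nuclei, 203 were in the MGE-interneuron-like class. Against excitatory-like nuclei (both layer classes summed), 22 of 28 members differed in MGE-interneuron-like nuclei, 8 higher (all genes, 16.6%) and 14 lower (all genes, 17.7%), with medians of -0.19 for the members and 0.01 for all genes. Sema6a had 413, 361, 342 and 418 CPM in MGE-interneuron-like and 76.4, 170.5, 117 and 108 CPM in excitatory-like nuclei, with no overlap. Sema4d, a ligand of B-type plexins, had 21.5, 24.4, 22.6 and 35.1 CPM against 149.9, 92.8, 110.3 and 111 CPM. The co-receptor Nrp1 was at 185, 332, 167 and 314 CPM, against 729, 846, 794 and 852 CPM in the excitatory-like class, whereas Nrp2 did not differ beyond its spread (52.3, 159, 69.2 and 81.1 CPM against 89.8, 101, 61.0 and 43.9 CPM, adjusted p = 0.507).

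Members higher in MGE-interneuron-like than in excitatory-like nuclei were Sema6a (1.69 ± 0.19), Sema3d (1.35 ± 0.32), Sema3a (1.23 ± 0.30), Sema5b (1.05 ± 0.11), Sema4a (0.97 ± 0.10), Plxnc1 (0.94 ± 0.11), Sema6c (0.57 ± 0.07) and Plxnb1 (0.41 ± 0.06) (log2 fold changes, adjusted p 2.0e-04 to 0.0159), in 4 of 4 libraries each. Members lower were Sema3c (-2.27 ± 0.21), Plxnd1 (-2.20 ± 0.27), Sema4d (-2.17 ± 0.16), Nrp1 (-1.81 ± 0.16), Sema5a (-1.47 ± 0.21), Plxna4 (-1.42 ± 0.14), Sema3e (-1.35 ± 0.29), Plxnb2 (-1.23 ± 0.10), Sema7a (-0.93 ± 0.07), Plxna2 (-0.60 ± 0.06), Sema4g (-0.49 ± 0.08), Sema4b (-0.42 ± 0.06), Plxna3 (-0.22 ± 0.06) and Plxna1 (-0.21 ± 0.06) (adjusted p 4.2e-05 to 0.0218), likewise in 4 of 4. The excitatory-like class sums layers that differ in several of these genes. By mean, deep-layer-like nuclei were the lowest of the 11 classes for Plxna4 (243 CPM), so its direction here holds against upper-layer-like nuclei only. For Plxna1 and Sema4g, MGE-interneuron-like nuclei (57.8 and 51.8 CPM) ranked next after deep-layer-like ones (77.8 and 82.4 CPM). Upper-layer-like nuclei were the lowest class for Sema3e (5.06 CPM). By mean, the direction of Plxna1, Sema4g and Sema3e thus holds against deep-layer-like nuclei only. The Sema3a values of MGE-interneuron-like nuclei overlapped with the upper-layer-like ones and were above the deep-layer-like ones. Sema3c, Plxnd1 and Sema5a did not exceed the background share in MGE-interneuron-like nuclei. The calls of Sema3e (without Dnmt1 KO replicate 2 or control replicate 1, adjusted p = 0.0545 and 0.0554), Sema3a (without control replicate 2, 0.0516), Plxna1 (without Dnmt1 KO replicate 2 or control replicate 2, 0.0960 and 0.0745) and Plxna3 (without Dnmt1 KO replicate 2, 0.0731) were lost on leaving out 1 library. Those of Plxna1 and Plxna3 were also lost with scaling by library size alone (0.0754 and 0.0555).

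The interneuron classes differed from each other in fewer genes, 5.09% of those tested being higher and 5.72% lower in MGE- than in CGE-interneuron-like nuclei. Of the family, 11 of 27 passed, 6 higher and 5 lower, with medians of 0.10 for the members and 0.00 for all genes. The ligand Sema3a was at 465, 252, 253 and 315 CPM in MGE- and 46.7, 81.6, 99.9 and 55.3 CPM in CGE-interneuron-like nuclei. Sema3f, the secreted ligand of Nrp2, was at 30.5, 20.5, 26.1 and 29.9 CPM and 9.33, 9.23, 10.1 and 9.45 CPM. Its receptor Nrp2 had the reverse order, at 52.3, 159, 69.2 and 81.1 CPM in MGE- and 322, 329, 157 and 343 CPM in CGE-interneuron-like nuclei. The MGE value of Dnmt1 KO replicate 2 and the CGE value of control replicate 1 were about equal, although within each library the CGE value was higher.

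The 6 genes higher in MGE-interneuron-like nuclei were Sema3a (2.06 ± 0.26), Sema3f (1.41 ± 0.16), Sema4a (0.99 ± 0.17), Sema6d (0.90 ± 0.11), Sema6a (0.74 ± 0.18) and Plxna1 (0.54 ± 0.10), all ligands except Plxna1 (adjusted p 6.9e-04 to 0.0322). The 5 lower ones were Nrp2 (-1.64 ± 0.23), Plxna4 (-1.19 ± 0.12), Plxnc1 (-0.97 ± 0.13), Plxnb2 (-0.96 ± 0.19) and Sema5b (-0.46 ± 0.11), all receptors except Sema5b (adjusted p 3.7e-04 to 0.0264). Each held its direction in 4 of 4 libraries. The call of Sema5b was lost on leaving out any library (0.0538 to 0.0883) and with the stricter gate (log2 -0.23). Those of Sema6a (0.0812 and 0.0699 without Dnmt1 KO replicates 1 and 2), Plxnb2 (0.0959 and 0.0791 without Dnmt1 KO replicate 2 and control replicate 1), Plxna1 and Sema4a (0.0569 and 0.0507 without Dnmt1 KO replicate 2) also moved past the threshold. Dnmt1 KO replicate 1 gave only 35 CGE-interneuron-like nuclei, and the other libraries 364 (Dnmt1 KO replicate 2), 364 and 79 (control). Pooled over libraries, the cell-cycle genes Mki67 and Top2a were at 121.8 and 83.0 CPM in CGE-interneuron-like nuclei. In MGE-interneuron-like nuclei they were at 23.0 and 14.9 CPM. The part of dividing cells in these fold changes was not tested.

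**Figure D4:**
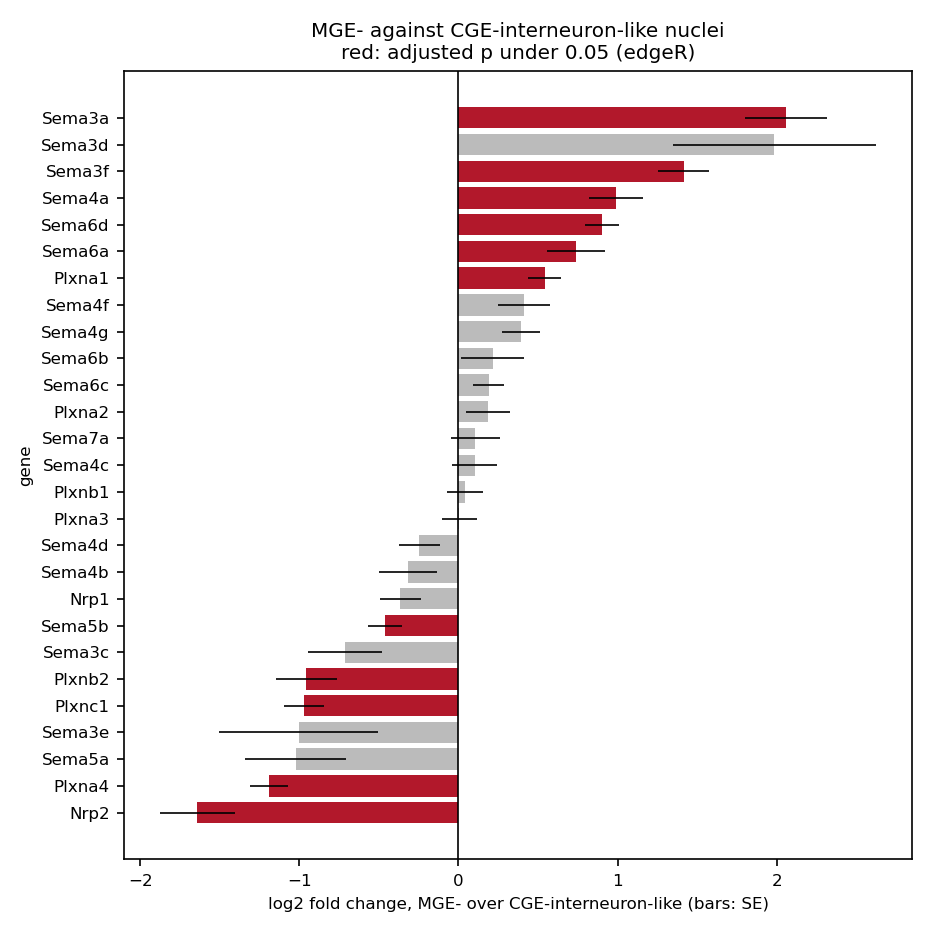
Log2 fold change of MGE- over CGE-interneuron-like nuclei for the 27 members tested (bars) with SE (lines), in red where the adjusted p was under 0.05. Sema3a and Sema3f stand on the MGE side, and Nrp2 and Plxna4 on the CGE side.

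In the vascular classes the levels are described with no test between classes. Plxnd1, known for its role in vessel patterning, was at 415, 355, 294 and 224 CPM in endothelial-like nuclei and at 112, 94.0, 109 and 152 CPM in Cajal-Retzius-like nuclei, the early neurons of the cortical surface, whereas it stayed at 0.935 to 4.67 CPM in MGE-interneuron-like nuclei. Sema3g, a class 3 ligand, had 62.9, 22.4, 43.7 and 25.3 CPM in endothelial-like nuclei on 30, 75, 46 and 33 counts, and at most 1.80 CPM on average in any of the other 10 classes. Sema6a was at 1742, 1795, 1828 and 1216 CPM in endothelial-like and 1509.8, 1304, 1015 and 910.4 CPM in Cajal-Retzius-like nuclei, ranges that overlapped. Sema7a was likewise highest in endothelial-like nuclei, with 124, 94.2, 103 and 73.6 CPM. The mural-like class, of pericytes and smooth muscle, had the highest means of Sema6d (2724, 1484, 1873 and 2288 CPM, overlapping with striatal-like nuclei), Plxnb2 (116, 77.1, 88.5 and 84.2 CPM) and Sema4c (119, 52.2, 71.5 and 87.3 CPM). Kdr, a receptor of the neuropilin-binding factor Vegfa, was itself a marker of the endothelial-like gate and is no finding there.

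The remaining classes held few nuclei. Striatal-like nuclei came mostly from control replicate 1 (196 of 235) and had 60.2 and 51.0 CPM of Sema3f in the 2 libraries with at least 20 of them. OPC-like, microglia-like, meningeal-like and choroid-plexus-like nuclei reached 20 in Dnmt1 KO replicate 2 alone. There, Plxnb3 was at 56.6 CPM (34 counts) in the OPC-like nuclei of the oligodendrocyte lineage, and at 0.133 to 0.422 CPM over all retained nuclei. Sema6d was at 3164 CPM in choroid-plexus-like nuclei. The microglia-like class was led by F13a1 and Mrc1, which are not in its marker list. Inpp5d was the only listed marker among its leading genes, although all 11 listed markers were raised. Which kinds of macrophage the class holds was not tested. Sema3b was at 10.6 CPM (21 counts) in choroid-plexus-like nuclei and sparse elsewhere, at 0.310 to 0.438 CPM over all retained nuclei (33 to 68 counts per library).

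Ligand and receptor genes were set side by side by the class of their highest mean among the 11 ranked classes. These leave out the OPC-like, microglia-like, meningeal-like and choroid-plexus-like nuclei of Dnmt1 KO replicate 2, in 1 or more of which Plxnb2, Plxnb3, Sema3a, Sema3b, Sema3d and Sema6d were higher than their highest ranked mean. The class was the same for 2 of 15 known pairs, Sema3c with Nrp2 in hippocampal-like nuclei and Sema4c with Plxnb2 in mural-like nuclei. This count goes by the mean alone, also for genes whose highest and second class overlapped. Nrp2 reached 356, 579, 471 and 665 CPM in hippocampal-like nuclei, a class led by Adamts19, Rerg and Prox1. Sema3e was highest in IPC-like nuclei and its receptor Plxnd1 in endothelial-like nuclei. Sema3a was highest in MGE-interneuron-like nuclei, and Nrp1 in upper-layer-like nuclei (1547 ± 277 CPM (SD, n = 4)), followed by hippocampal-like nuclei (1242 ± 309 CPM (SD, n = 4)), a pair whose libraries overlapped. Endothelial-like nuclei came next (787 ± 143 CPM (SD, n = 4)). Sema6a was highest in endothelial-like nuclei, and its receptors Plxna2 and Plxna4 in upper-layer-like ones. Sema3d, Sema3f and Sema6b had their highest ranked mean in striatal-like nuclei, for Sema3d on 2.15 and 27.6 CPM and thus on control replicate 1 alone, against upper-layer-like (Nrp1 and Plxna4) and hippocampal-like nuclei (Nrp2) for their receptors. Sema3c with Nrp1, Sema3g with Nrp2, Sema4d with Plxnb1, Sema5a with Plxnb3 (at 1.05 ± 2.10 CPM (SD, n = 4) in endothelial-like nuclei), Sema6d with Plxna1 and Sema7a with Plxnc1 also had their highest means in separate classes. Nrp1 overlapped between upper-layer-like and hippocampal-like nuclei, where Sema3c was highest. Sema3a overlapped between MGE-interneuron-like and upper-layer-like nuclei, where Nrp1 was highest. Separate classes are thus not shown for Sema3c or Sema3a with Nrp1. These are levels of nuclear transcripts, and binding was not measured.

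The pathway list held 28 other genes, which act beside the receptors or downstream of them. Between MGE-interneuron-like and excitatory-like nuclei, 16 of 27 (5 higher and 11 lower, beside 16.6% and 17.7% of all genes) of those tested passed. Between radial-glia-like and IPC-like nuclei the number was 19 of 26 (8 higher and 11 lower, beside 24.9% and 20.9% of all genes), from IPC-like to upper-layer-like nuclei 19 of 24 (5 higher and 14 lower, beside 25% and 26.8% of all genes), between deep-layer-like and upper-layer-like nuclei 16 of 25 (9 higher and 7 lower, beside 24.1% and 24.1% of all genes), and between MGE- and CGE-interneuron-like nuclei 8 of 23 (3 higher and 5 lower, beside 5.09% and 5.72% of all genes). With scaling by library size alone the split was 8 higher and 9 lower from IPC-like to upper-layer-like nuclei (beside 49.8% and 14.7% of all genes), and 6 higher and 10 lower between the layer classes (beside 18.6% and 40.4%). Crmp1, Dpysl2, Dpysl3 and Dpysl5, collapsin response mediators of Sema3a, were all lower in IPC-like than in upper-layer-like nuclei, by log2 fold changes of -1.73, -0.62, -1.55 and -1.34 on the TMM scale and of -1.35, -0.24, -1.17 and -0.96 with scaling by library size (all past the threshold on both), whereas Dpysl4 was higher (1.99 ± 0.19). L1cam, which forms a complex with Nrp1, was lower in IPC-like nuclei as well (-2.43 ± 0.10). Nrcam, which pairs with Nrp2, was higher in deep-layer-like than in upper-layer-like nuclei (2.12 ± 0.07), and so was Mical2, an oxidase of actin (2.39 ± 0.24).

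The study asks what loss of Dnmt1 in Sst-lineage interneurons changes in these and in surrounding cells. No member passed the test between genotypes in any of 7 populations (edgeR, 2 against 2 libraries), where 0% of all genes tested passed. This held with the low-count filter. Without it, edgeR called 5 of 31 members in deep-layer-like nuclei (Nrp2, adjusted p = 8.1e-11, Plxnd1, 3.9e-05, Sema3d, 0.00819, Nrp1, 0.0205, and Plxna4, 0.0478), where it called 1.28% of all genes, and 1 in IPC-like nuclei (Sema6d, 0.00813), where it called 0.767%. It called 0 members in all retained (0.19% of all genes), Sst+/Gad2+ (0.269%), MGE-interneuron-like (0%), radial-glia-like (0%) and upper-layer-like nuclei (0.479%). The smallest adjusted p of any gene in these unfiltered edgeR fits was 2.4e-196 in deep-layer-like and 1.6e-71 in IPC-like nuclei. Such values from 2 against 2 libraries were not taken at face value. At an unadjusted p under 0.05 there were 4 members in all retained nuclei (7.49% of all genes), 0 in Sst+/Gad2+ (2.92%), 0 in MGE-interneuron-like (5.57%), 2 in radial-glia-like (4.73%), 1 in IPC-like (5.66%), 3 in deep-layer-like (6.14%) and 2 in upper-layer-like nuclei (3.22%). DESeq2 called 1 member in all retained nuclei (Sema3d, adjusted p = 0.0114), where it called 0.953% of all genes, and 1 in deep-layer-like nuclei (Nrp2, adjusted p = 0.00646), where it called 0.089%. It called 0 members in Sst+/Gad2+ (0% of all genes), radial-glia-like (0.0349%), MGE-interneuron-like (0.0154%), IPC-like (0.0723%) and upper-layer-like nuclei (0.0135%). Both libraries of 1 genotype lay above both of the other for 9 of 31 members in all retained nuclei (40.1% of all genes), 8 of 27 in Sst+/Gad2+ (33.5%), 7 of 28 in MGE-interneuron-like (38%), 11 of 29 in radial-glia-like (36.6%), 6 of 24 in IPC-like (37.7%), 9 of 28 in deep-layer-like (38.5%) and 5 of 28 in upper-layer-like nuclei (34.5%). The share of members was close to that of all genes in radial-glia-like nuclei and below it elsewhere.

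In the Sst+/Gad2+ nuclei, which numbered 16 and 136 (Dnmt1 KO) and 40 and 27 (control), the 3 members with the smallest p were Plxna3, Plxna4 and Sema3a. Sema3a was at 1243 and 322 CPM (Dnmt1 KO) against 333 and 442 CPM (control) (log2 difference of 1.06 ± 0.59 and an unadjusted p of 0.119). The first of these values came from the 16 nuclei, and without that library the difference turned to -0.21, whereas without Dnmt1 KO replicate 2 it was 1.76 with an adjusted p of 0.0128 (0.753% of all genes passed). Plxna4 was at 347 and 731 CPM (Dnmt1 KO) against 1031 and 822 CPM (control) (log2 difference of -0.71 ± 0.36 and an unadjusted p of 0.0950), and Plxna3 at 84.6, 74.0, 61.8 and 49.1 CPM. The summed markers of upper-layer neurons, in which Plxna4 was highest, came to 3032 and 3358 CPM (Dnmt1 KO) against 3682 and 5424 CPM (control), likewise lower in each Dnmt1 KO library. Nrp1 and Nrp2 were at 16.9, 286, 122 and 363 CPM and 4.23, 194, 95.8 and 69.4 CPM there, with the 16 nuclei lowest for both. Among MGE-interneuron-like nuclei, Nrp1 was at 185 and 332 CPM (Dnmt1 KO) against 167 and 314 CPM (control) and Nrp2 at 52.3 and 159 CPM (Dnmt1 KO) against 69.2 and 81.1 CPM (control), with adjusted p of 0.944 and 0.846. Nrp2 was high in Dnmt1 KO replicate 2 alone, and without it the log2 difference went from 0.58 to -0.45. The smallest p there were those of Plxnb2 (14.0 and 16.49 CPM (Dnmt1 KO) against 20.8 and 21.0 CPM (control), unadjusted p = 0.0525), Plxna3 and Plxnd1, the last at the background level with 0.935 to 4.67 CPM.

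Transcripts of other cell types were found in the Sst+/Gad2+ nuclei, in which doublets were not called. Of the 219 nuclei, 16 lay outside the MGE-interneuron-like class, among them 2 endothelial-like, 2 microglia-like and 5 without a class. The summed level of the 9 endothelial markers was 8.46 and 105 CPM (Dnmt1 KO) against 7.27 and 285 CPM (control), with 2, 9, 5 and 8 of them detected, beside 6.30 to 9.65 CPM in MGE-interneuron-like nuclei. In each of the high libraries, Dnmt1 KO replicate 2 and control replicate 2, 1 nucleus held 209 of the 225 and 195 of the 197 counts. The 11 microglia markers summed to 29.6 and 40.5 CPM (Dnmt1 KO) against 83.6 and 28.9 CPM (control), with 4, 8, 8 and 6 detected, beside 15.0 to 26.8 CPM. The upper- and deep-layer marker lists had larger sums. Of the MGE-interneuron-like nuclei, 245 of 263, 973 of 1036, 559 of 610 and 355 of 361 held 10 or more counts of the upper-layer list. This sum was thus not confined to a few nuclei. Whether interneurons express these genes themselves was not tested, so that the sums may hold transcripts of their own. Of the 9 upper-layer markers whose sums stand beside Plxna4 above, 5, 9, 8 and 9 were detected (Pou3f1, Pou3f2, Inhba and Mdga1 were at 0 in the 16 nuclei, and Inhba in control replicate 1). Their sum was also lower in both Dnmt1 KO libraries in the MGE-interneuron-like part (3032 and 3523 CPM (Dnmt1 KO) against 3581 and 5677 CPM (control)) and in all MGE-interneuron-like nuclei (3516 and 3727 CPM (Dnmt1 KO) against 3789 and 4879 CPM (control)). The 10 deep-layer markers overlapped between genotypes, at 1121 and 2562 CPM (Dnmt1 KO) against 2893 and 1877 CPM (control), with 9, 10, 10 and 10 detected (Crym was at 0 in the 16 nuclei). The part of excitatory transcripts in the values of Plxna4 and the other members was not tested. In the 203 Sst+/Gad2+ nuclei of the MGE-interneuron-like class the endothelial and microglia sums were 3.08 to 9.69 CPM and 6.46 to 29.6 CPM. Sema3a was then at 1243 and 335 CPM (Dnmt1 KO) against 422 and 427 CPM (control) and Plxna3 at 84.6 and 76.4 CPM (Dnmt1 KO) against 61.4 and 52.4 CPM (control), without overlap for Plxna3 as before. Plxna4, at 347 and 711 CPM (Dnmt1 KO) against 685 and 870.2 CPM (control), now overlapped between the genotypes. Nrp1 and Nrp2 were at 16.9, 229, 107 and 362 CPM and 4.23, 179.8, 116 and 69.3 CPM. No member passed in edgeR's test in these nuclei, nor did any of 6635 genes, and 0 of the 22 members tested had an unadjusted p under 0.05. What the other nuclei add to the remaining values was not tested.

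The smallest unadjusted p of any member in the 7 populations was that of Nrp2 in deep-layer-like nuclei. It was at 87.9 and 126 CPM (Dnmt1 KO) against 56.7 and 50.6 CPM (control) (log2 difference of 1.03 ± 0.19 and an unadjusted p of 0.00218, adjusted p = 0.765 by edgeR with the low-count filter and 8.1e-11 without it). Both Dnmt1 KO values were above both controls. The summed level of the 4 markers of the hippocampal-like class, whose nuclei had the highest Nrp2, was also higher in the same Dnmt1 KO sums, at 366 and 439.6 CPM (Dnmt1 KO) against 287 and 277 CPM (control), with all 4 genes detected in each library. This sum is not particular to that class. It was also higher in the Dnmt1 KO in radial-glia-like (4907, 5140, 4421 and 4259 CPM) and IPC-like nuclei (4662, 4768, 3917 and 3739 CPM). Nrp2 was at 14.5 to 31.3 CPM and 63.4 to 81.0 CPM in these classes, with the genotypes overlapping. The part of hippocampal-like nuclei in the deep-layer-like difference was not tested. Over all retained nuclei, Nrp2 was at 159 and 256 CPM (Dnmt1 KO) against 122 and 123 CPM (control), with an adjusted p of 0.649 by edgeR and of 0.0293 without Dnmt1 KO replicate 1, where 0.825% of all genes passed. Hippocampal-like nuclei made up 9.80% (95% Wilson interval 9.06% to 10.6%) and 6.25% (5.83% to 6.70%) of the Dnmt1 KO nuclei, and 3.36% (2.97% to 3.81%) and 3.45% (2.97% to 3.99%) of the controls, intervals that cover counting error only. With these nuclei left out, Nrp2 was at 135 and 230.5 CPM (Dnmt1 KO) against 109 and 100.2 CPM (control). Sema3d, the other gene at the head of the list over all nuclei, was at 6.37 and 10.1 CPM (Dnmt1 KO) against 3.67 and 1.85 CPM (control), and at 6.37 and 4.54 CPM (Dnmt1 KO) against 3.67 and 1.78 CPM (control) with the meningeal-like nuclei left out, of which 251 of 256 were in Dnmt1 KO replicate 2.

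Plxna3, an X-linked receptor partner of Nrp2, and the ligand Sema4c were apart between genotypes in several populations. Plxna3 had 79.7 and 79.7 CPM (Dnmt1 KO) against 64.9 and 66.6 CPM (control) over all retained nuclei, 53.1, 57.8, 44.5 and 40.5 CPM in radial-glia-like, 87.7, 86.8, 71.2 and 65.0 CPM in deep-layer-like and 88.8, 93.3, 73.0 and 73.4 CPM in upper-layer-like nuclei. Both Dnmt1 KO libraries were above both controls in these populations and in MGE-interneuron-like and Sst+/Gad2+ nuclei, which share libraries, but not in IPC-like nuclei (65.3, 56.5, 44.8 and 62.8 CPM). Of the 6999 genes tested in all 7 populations, 6% were apart in one direction in at least 6. Sema4c was lower in both Dnmt1 KO libraries in 5 populations (all retained, Sst+/Gad2+, MGE-interneuron-like, deep-layer-like and upper-layer-like), and 12.9% of the same genes were apart in at least 5. These were 2 of the 24 members tested in all populations. The log2 differences of Plxna3 were 0.26 (all retained) to 0.54 (Sst+/Gad2+) in the 6 populations without overlap, with edgeR adjusted p of 0.649 to 1.00. Other members with the smallest p were Plxnd1 in deep-layer-like nuclei (19.9, 17.6, 11.95 and 8.59 CPM), Nrp1 in radial-glia-like nuclei (68.6, 106, 126 and 167 CPM, at the background level, and past the threshold with 4 other members only without Dnmt1 KO replicate 2, where 2.05% of all genes passed) followed by Sema3d (17.2, 9.51, 9.33 and 7.33 CPM), Sema4d and Sema4c in upper-layer-like nuclei (81.8, 89.3, 109 and 111 CPM and 19.4, 23.4, 27.8 and 26.9 CPM), and Sema6d, Sema3a and Sema4d in IPC-like nuclei (58.7, 83.0, 131 and 125 CPM, 116, 202, 219 and 221 CPM and 18.5, 21.9, 25.2 and 28.0 CPM). Of these, Sema6d passed without Dnmt1 KO replicate 2 (adjusted p = 0.0462, 0.746% of all genes). Over all retained nuclei Sema4c was at 16.8, 18.3, 21.9 and 21.3 CPM. The plot of levels by genotype shows 4 of these genes.

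**Figure D5:**
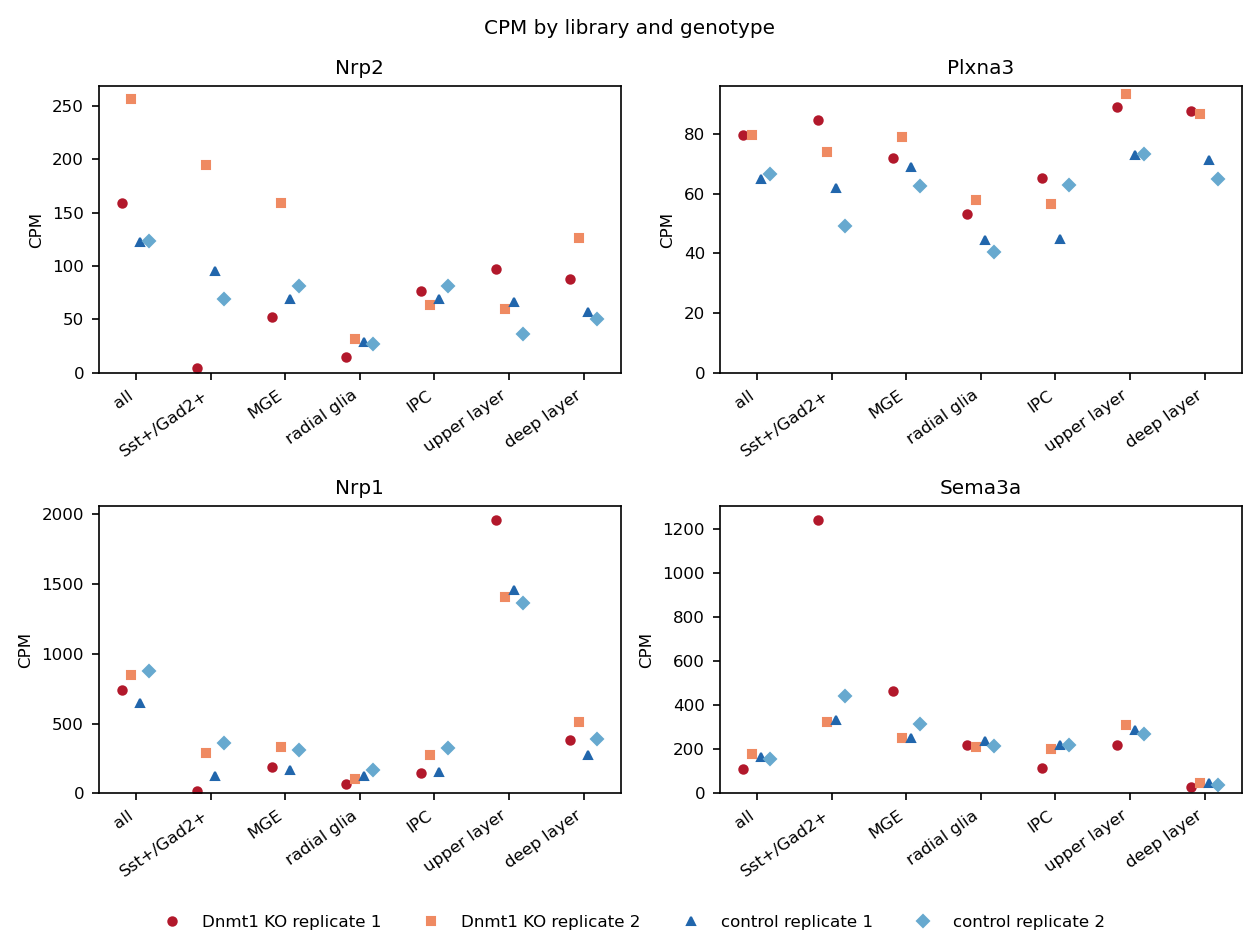
CPM (linear axes from 0) of Nrp2, Plxna3, Nrp1 and Sema3a in 7 populations, 1 point per library, with red shades for Dnmt1 KO and blue shades for control. Plxna3 lies higher in both Dnmt1 KO libraries outside IPC nuclei, Nrp2 in deep-layer nuclei, and the Sst+/Gad2+ value of Sema3a is set apart by 1 library.

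Whether the genotypes differed otherwise in MGE-interneuron-like than in excitatory-like nuclei was tested as an interaction. No member passed in edgeR's quasi-likelihood test, and 0% of all genes tested did. Without the low-count filter Sema3a and Plxna4 passed (adjusted p = 1.4e-04 and 0.00869), with 0.408% of all genes. At an unadjusted p under 0.05 there were 2 members (2.45% of all genes), and DESeq2 called 0 members and 0% of all genes. The 3 members with the smallest p were Plxnc1 (log2 -0.48 ± 0.15), Plxna4 (0.58 ± 0.19) and Sema5b (0.39 ± 0.20), with edgeR adjusted p of 1.00 each. The excitatory-like sums held 906 and 1578 deep-layer-like beside 471 and 1499 upper-layer-like nuclei in the Dnmt1 KO. In the controls they held 1011 and 966 beside 1201 and 1278. In the comparison of layers, Plxna4, Sema5b and Sema3a were higher in upper-layer-like nuclei and Plxnc1 in deep-layer-like ones. The part of this layer mix in the interaction was not tested. Of the 28 pathway genes, 0 passed between genotypes in any population in the edgeR test on all libraries, and 1 in all retained, 0 in Sst+/Gad2+, 2 in MGE-interneuron-like, 3 in radial-glia-like and 1 in each of IPC-like, deep-layer-like and upper-layer-like nuclei had an unadjusted p under 0.05, beside the shares of all genes given above (7.49%, 2.92%, 5.57%, 4.73%, 5.66%, 6.14% and 3.22% in this order).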

How the data were processed

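Nuclei of medial neocortex were barcoded by split-pool indexing (Parse Evercode). The authors processed the reads with Trailmaker (version not given in the sources used here) against GRCm39 and deposited raw counts of transcripts per barcode and gene, without normalization. The deposited barcode tables also hold counts of mapped reads. Counting of introns and strand is not given in the sources used here.

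Barcodes were retained if they held 1500 to 60000 transcripts. A limit of 10% on mitochondrial transcripts removed 0. Doublets were not called, and 0 barcodes were shared between libraries. Counts were log-transformed, and 16 marker lists of 4 to 11 genes scored as mean z values (limit 5). A nucleus took the class with the highest score if this was at least 0.4, led by 0.2 and rested on 3 detected markers. Of the nuclei, 1677 assigned and 1583 unassigned ones lay within 0.1 of a limit.

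Counts were summed per library and class and tested with edgeR 4.0.16 (quasi-likelihood, TMM, filterByExpr, R 4.3.3), between classes with library as a block, with Benjamini-Hochberg adjustment over all genes at 0.05. Alternatives were DESeq2 1.42.0, no filter, each library left out, a stricter gate (0.6 and 0.4), gating on nuclei thinned to 1500 transcripts (2 markers), and, within populations between genotypes, a filter on mapped reads, batch, and a replicate block. Leaving out hippocampal-like or meningeal-like nuclei, scaling by library size without TMM, and Sst+/Gad2+ nuclei of the MGE-interneuron-like class only were chosen after seeing the data. The edgeR script was tested on simulated data. In comparisons of classes, all members past the threshold are named, and between genotypes the 3 with the smallest p, with Nrp1 and Nrp2 in MGE-interneuron-like nuclei. The chromosome 5 genes, the other classes and the genes apart in several populations were picked after their values were seen. The members and lists were chosen with earlier results of these data known.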

Additional observations from a re-analysis of the deposited data

Results flagged for a closer look

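Sema4f, a transmembrane ligand, was higher in both Dnmt1 KO libraries in deep-layer-like nuclei and lower in both in MGE-interneuron-like and IPC-like nuclei, with no test passed in any of them. Of all genes tested, 2299 of 15724 were higher in both in deep-layer-like nuclei. Lower in both were 3377 of 13005 in MGE-interneuron-like, 2773 of 11062 in IPC-like and 1531 of 7217 in Sst+/Gad2+ nuclei. In deep-layer-like nuclei it was at 28.8 and 27.0 CPM (Dnmt1 KO) against 26.1 and 24.1 CPM (control), in MGE-interneuron-like nuclei at 23.1 and 21.0 CPM (Dnmt1 KO) against 25.4 and 24.5 CPM (control) and in IPC-like nuclei at 2.10 and 4.10 CPM (Dnmt1 KO) against 4.20 and 4.75 CPM (control), the last on 6, 9, 9 and 18 counts. The log2 ratios of the genotype means were 0.15, -0.18 and -0.53, so that the MGE-interneuron-like and IPC-like ratios were 0.33 and 0.68 below the deep-layer-like one. Plxnc1, the receptor of Sema7a, was likewise higher in deep-layer-like nuclei, at 36.8 and 47.4 CPM (Dnmt1 KO) against 35.2 and 29.5 CPM (control), and lower in Sst+/Gad2+ nuclei, at 59.2 and 114 CPM (Dnmt1 KO) against 115 and 121 CPM (control), where the Dnmt1 KO and control ranges lay less than 1 CPM apart. Its log2 ratios were 0.38 and -0.45, which are 0.83 apart. The differences between these classes were not tested. Groups of 2 libraries were too small to look for single outlying values.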

How the results depend on the processing

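Over the class comparisons, the number of members called stayed within 1.5 times under each alternative run for them (DESeq2, no low-count filter, each library left out, both other gates and scaling by library size). On leaving out each library it was 19 to 23 beside 26.2% to 31.7% of all genes (MGE-interneuron-like against excitatory-like), 20 to 22 beside 39.4% to 41.6% of all genes (radial-glia-like against IPC-like), 22 to 25 beside 44.7% to 47.0% of all genes (IPC-like against upper-layer-like), 17 to 24 beside 36.0% to 48.8% of all genes (deep-layer-like against upper-layer-like) and 9 to 11 beside 6.83% to 8.85% of all genes (MGE- against CGE-interneuron-like). Between genotypes, 0 members passed by edgeR. DESeq2 called 1 in all retained and 1 in deep-layer-like nuclei. Without the low-count filter edgeR called 5 in deep-layer-like nuclei (Nrp1, Nrp2, Plxna4, Plxnd1 and Sema3d, 5 of 31 members beside 1.28% of all genes), 1 in IPC-like (Sema6d, 1 of 31 beside 0.767%) and 2 in the interaction (Sema3a and Plxna4, 2 of 31 beside 0.408%), and the cause was not tested. Leaving out each library gave 0 to 1 in all retained, 0 to 2 in Sst+/Gad2+, 0 to 5 in radial-glia-like, 0 to 1 in IPC-like and 0 in the other populations and the interaction. With a library left out, its genotype rests on 1 library, which is assumed to vary as the other genotype does. All calls in radial-glia-like and Sst+/Gad2+ nuclei came without Dnmt1 KO replicate 2 (Nrp1, Plxna4, Plxnc1, Sema3c and Sema6a, 5 of 29 members beside 2.05% of all genes, in the former, Nrp2 and Sema3a, 2 of 27 beside 0.753%, in the latter), as did that in IPC-like nuclei (Sema6d, 1 of 24 beside 0.746%). These calls were all lower in the Dnmt1 KO except that of Sema3a. That of Nrp2 rested on 4.23 CPM in the 16 Sst+/Gad2+ nuclei of Dnmt1 KO replicate 1 (236485 transcripts). Only members named in the main comparisons were followed gene by gene through the alternatives, so that Nrp2 in Sst+/Gad2+ nuclei was not. Among those followed, the genes that reversed were Sema3a in Sst+/Gad2+ nuclei (-0.21 to 1.76 on leaving out each library), Plxnd1, Nrp1 and Nrp2 in MGE-interneuron-like nuclei (-0.41 to 1.87, -0.31 to 0.70 and -0.45 to 1.13, lowest without Dnmt1 KO replicate 2, and Nrp1 also -0.22 without control replicate 1), Nrp1 in radial-glia-like nuclei (0.23 with thinned gating), and in IPC-like nuclei Sema6d (0.13 with thinned gating) and Sema4d (0.15 with thinned gating and 0.079 with the filter on mapped reads). Of all alternatives for the members followed, 1111 kept direction and side of the threshold, 62 lost and 10 gained a call, and 9 reversed. Scaling by library size alone, chosen after seeing the data, gave 20, 21, 22, 22 and 11 members, beside 36.1%, 45.5%, 64.5%, 59.1% and 11.0% of all genes, in the class comparisons (MGE-interneuron-like against excitatory-like, radial-glia-like against IPC-like, IPC-like against upper-layer-like, deep-layer-like against upper-layer-like, MGE- against CGE-interneuron-like) and 0 between genotypes. Beside the losses given with the comparisons, DESeq2 lost Plxna1 (MGE-interneuron-like against excitatory-like), Sema4a (radial-glia-like against IPC-like, and deep-layer-like against upper-layer-like), Sema4b (IPC-like against upper-layer-like), and Sema4c and Sema7a (deep-layer-like against upper-layer-like). The fit without the filter lost Sema4b (IPC-like against upper-layer-like), Sema4c and Sema7a, and the stricter gate Sema4a and Sema7a (deep-layer-like against upper-layer-like). Thinned gating lost Sema4a, Plxnd1, Sema4c, Sema7a, Sema3d, Sema6a, Plxnb2 and Sema5b in 1 comparison each and Plxna1 in 2.

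The replicate block called 0 members in every population, as did batch as a covariate. Same-numbered libraries were alike in Xist, high in both replicates 1 and low in both replicates 2, so the block also stands for that difference. Over all genes the correlation of same-numbered deviations was -0.06 to 0.11, and the labels name no shared litter, batch or day. Batch 2 holds 1 control library, so genotypes cannot be compared within it. Batch as a covariate thus nearly repeats the fit without control replicate 2 and is no further check. Depth limits Sema3b, Sema3g, Plxnb3 and Sema3d, and 16 Sst+/Gad2+ nuclei limit Dnmt1 KO replicate 1.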
